A study of Homo sapiens with 12 samples.

Results

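Cathepsins are the proteases of the lysosome, the acidic compartment in which cells digest proteins, lipids and sugars. The transcripts of 7 cathepsins (CTSA, CTSB, CTSC, CTSD, CTSL, CTSS and CTSZ), of the lysosome membrane proteins LAMP1 and LAMP2, and of TFEB, a transcription factor of lysosomal genes, were followed across 4 lines of MIA PaCa-2, a human pancreatic carcinoma cell line. The genes were taken by symbol, and each of the 10 matched 1 of the 63086 genes of the count table. WT cells were not manipulated. The CRISPR Control line had been through CRISPR-Cas9 editing and carried only a silent point mutation. TIMP1 KO 1 and TIMP1 KO 2 were knockout clones made with guides to exon 4 of TIMP1, which encodes a secreted inhibitor of matrix metalloproteinases. Each line had 3 libraries, and all cells were grown in RPMI 1640 with fetal calf serum. WT and CRISPR Control are called the competent lines here, and the KO lines the deficient lines.

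The 12 libraries held 26908701 to 36093563 reads in genes, and the values below are normalised read counts. Normalised counts of TIMP1 ran from 1136 to 1192 in KO 2, 1562 to 1624 in KO 1, 2285 to 2959 in CRISPR Control and 3290.2 to 3837 in WT. An edit in exon 4 need not remove the transcript, so these levels check the labels only in part. Markers of this carcinoma line (KRT8, KRT18, VIM, EPCAM, CDH1 and CDH2) were detected in every line. Their summed normalised counts ran from 104897 to 131396 in CRISPR Control and 251062 to 269855 in WT. The sums were 203009 to 211603 in KO 2 and 284408 to 288858 in KO 1. KRT8, VIM and KRT18 dominate these sums (means over the 12 libraries of 100502, 73815 and 40491), which therefore hide changes of the scarcer markers. CDH1 averaged 84.9 for KO 2 and 128 for KO 1, beside 1189 for WT and 1424 for CRISPR Control. CDH2 averaged 93.7 for KO 1 and 384 for KO 2, beside 571 for WT and 1110 for CRISPR Control. EPCAM averaged 1299 for KO 2 and 1875 to 2036 for the other lines. Each genotype is represented by 1 or 2 lines, so the loss of TIMP1 and other differences between lines cannot be told apart. In bulk RNA, fewer cells expressing a gene and less RNA per cell cannot be told apart either.

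Most cathepsins are made as inactive precursors, tagged with mannose 6-phosphate in the Golgi and activated by cleavage once they reach the lysosome. LAMP1 and LAMP2 are heavily glycosylated and make up much of the protein of the lysosomal membrane. TFEB and its relatives of the MiT/TFE family bind the E-box CACGTG, and a longer palindrome around it is known as the CLEAR element of lysosomal genes. In pancreatic acinar cells, cathepsin B is known for activating trypsinogen, and in tumors secreted cathepsins are known for degrading extracellular matrix.

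Because TFEB is among these genes, the E-box letters are shown first for those members whose promoter window holds them. RefSeq windows of GRCh38.p14, reaching from 250 bases before to 50 bases after the gene start, matched 7 of the 10 genes (CTSA, CTSC, CTSD, CTSL, CTSZ, LAMP1 and TFEB, the last with 3 windows). CACGTG, which reads the same on both strands, occurred in 7.26% of all 35116 windows. It occurred 6 times in LAMP1, 2 times in CTSA and 1 time in CTSD, and was not found in the windows of CTSC, CTSL, CTSZ or TFEB. Sequences run 5′ to 3′ on the gene's strand, with the E-box in capitals. The first stretch of LAMP1 (chr13:113297035-113297114, + strand) begins 12 bases before the first of 4 matches, which lie 192, 176, 159 and 142 bases before the gene start. The second (chr13:113297199-113297228, + strand) holds the match 28 bases before it, and the last match, not printed, begins 1 base before it. The matches in CTSA lie 42 bases (chr20:45891281-45891310, + strand) and 25 bases (chr20:45891298-45891327, + strand) before the RefSeq start, within sequence that GENCODE annotates as exonic. The match in CTSD (chr11:1763957-1763986, − strand) lies 47 bases before the start.
LAMP1 upstream: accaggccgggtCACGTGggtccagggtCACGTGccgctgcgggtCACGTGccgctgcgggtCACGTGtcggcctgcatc
LAMP1 proximal: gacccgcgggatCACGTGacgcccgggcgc
CTSA distal: gaggaagactgtCACGTGgcgccggagttc
CTSA proximal: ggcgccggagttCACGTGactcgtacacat
CTSD: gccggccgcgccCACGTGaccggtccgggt

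TCACGTGA, 8 letters of the CLEAR palindrome, was in the windows of LAMP1 and CTSA and in 0.98% of all windows. The palindrome with G before and C after these 8 letters was in none of the members' windows and in 0.353% of all windows. These matches are a description of the letters, not binding sites, and CACGTG is part of each longer motif searched.

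The 10 genes fell into sets with different orders of the 4 lines. CTSA, CTSB, CTSD and CTSZ were lowest in CRISPR Control, intermediate in WT and highest in the deficient lines. CTSS and LAMP2 rose from WT through CRISPR Control and KO 1 to KO 2. CTSC, CTSL, LAMP1 and TFEB rose in CRISPR Control against WT, and none of them passed the threshold in KO 1 against WT. Tests are limma's, two-sided, on log2(normalised count + 1), and p-values were adjusted over 15987 genes with a threshold of 0.05.

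**Figure D1:**
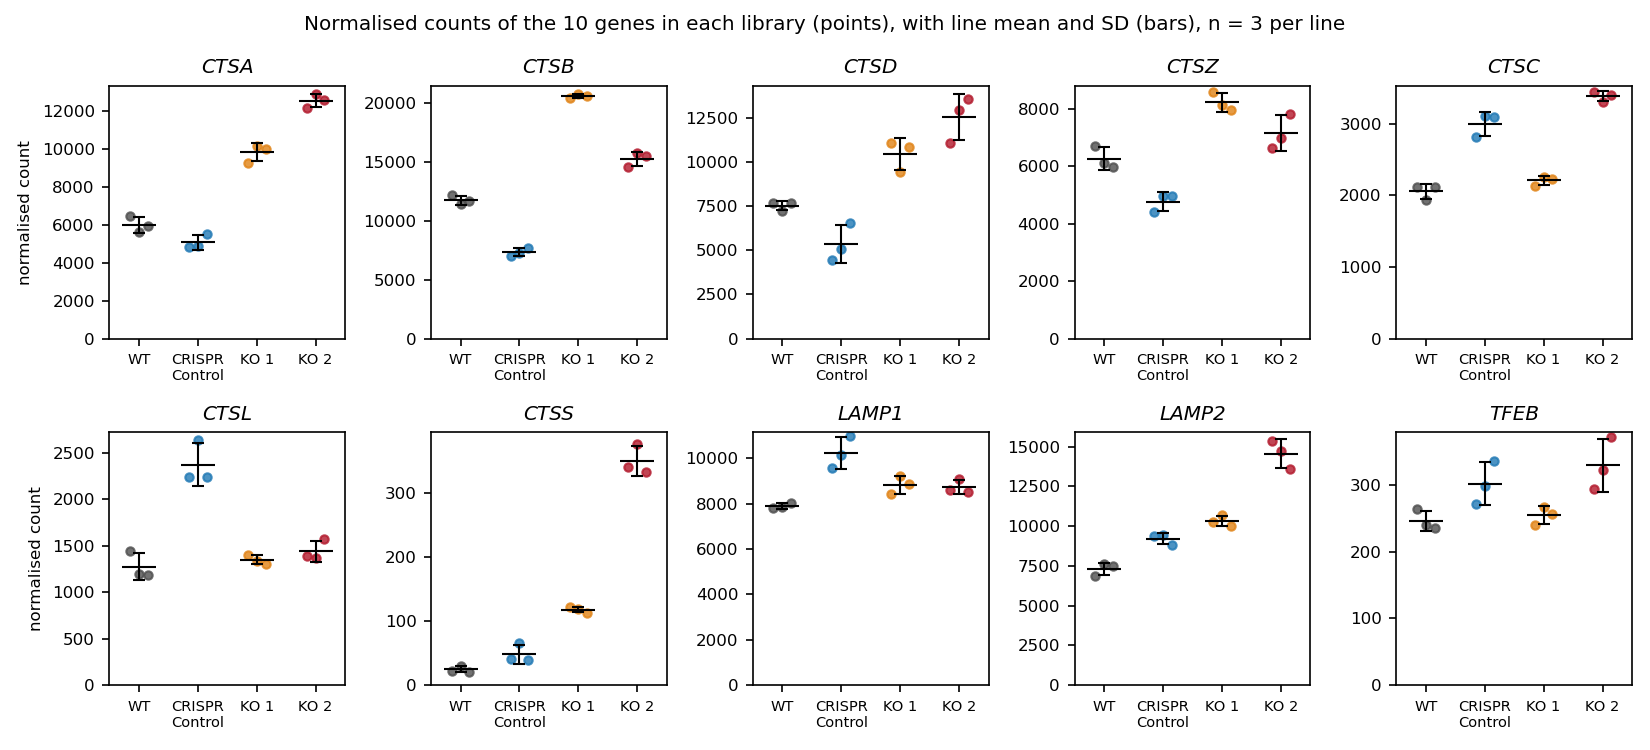
Normalised count (linear axis from 0) of each of the 10 genes in the 12 libraries, grouped by line. Points are libraries and bars the line mean ± SD (n = 3). CTSB falls to about 7325 in CRISPR Control and stands at 20607 in KO 1, whereas CTSL stands apart in CRISPR Control alone and CTSS in KO 2.

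Against WT, 6 of the 10 genes rose in KO 1 and none fell, where 35.5% of all genes tested were called and 18% rose. In KO 2 against WT, 8 rose and none fell, where 55% of all genes were called and 27.1% rose. In CRISPR Control against WT all 10 were called, 6 higher and 4 lower, where 53.4% of all genes were called, 27.2% higher and 26.3% lower. The median log2 fold change of the 10 genes was 0.43 in KO 1, 0.57 in KO 2 and 0.31 in CRISPR Control, beside medians over all genes of 0.0032, -0.0084 and 0.013. These comparisons share the WT libraries. All 10 estimates of limma were positive in both KO lines, so it could call none lower at any threshold. After adjustment, edgeR and DESeq2 on the recovered reads also called none lower in either KO line.

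**Figure D2:**
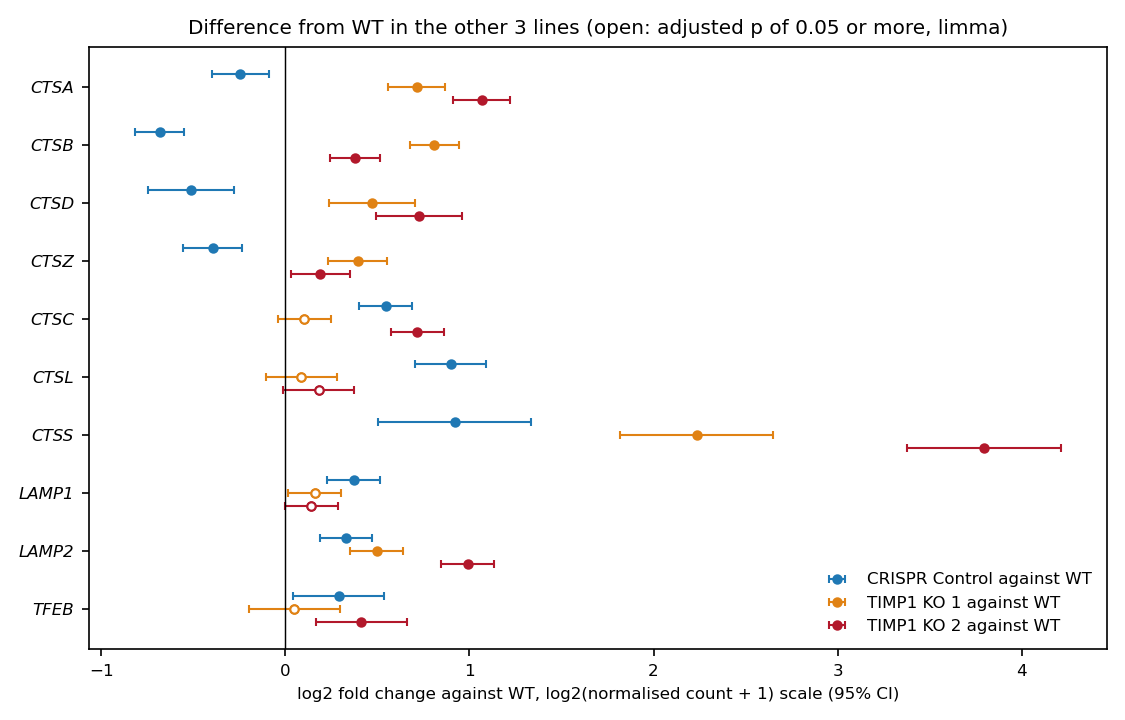
Log2 fold change against WT of each of the 10 genes in CRISPR Control, KO 1 and KO 2 (points, with 95% confidence intervals from limma). Open points did not pass the adjusted threshold. CTSA, CTSB, CTSD and CTSZ lie left of 0 in CRISPR Control and right of 0 in both KO lines, and CTSS reaches 3.79 in KO 2.

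CTSB (chromosome 8, 10 exons in the canonical transcript) encodes cathepsin B, a cysteine protease. CRISPR Control replicates 1, 2 and 3 had normalised counts of 6991, 7300.3 and 7685, and WT had 12159.6, 11409 and 11704. KO 2 had 14625, 15731 and 15519.5, and KO 1 had 20421, 20759.7 and 20641. No 2 lines overlapped. CTSB rose in KO 1 against WT by 0.81 (SE 0.064, adjusted p = 1.0e-08) on the log2 scale. The log2 gain in KO 2 was 0.38 (adjusted p = 5.9e-05), and in CRISPR Control CTSB fell by 0.68 (adjusted p = 4.7e-08). CTSB was higher in KO 1 than in KO 2, the reverse of CTSA and CTSS: the log2 difference of KO 2 against KO 1 was -0.43 (adjusted p = 2.9e-05).

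CTSA (chr20:45890144-45898949, + strand, 15 exons) encodes cathepsin A, a serine carboxypeptidase that also protects beta-galactosidase and neuraminidase in the lysosome. Normalised counts of the 3 replicates were 4827, 4875 and 5513 for CRISPR Control, 6474, 5608 and 5937 for WT, 9295, 10194 and 10017 for KO 1 and 12198, 12915 and 12587 for KO 2. All 6 deficient libraries exceeded the 6 competent ones, and KO 2 lay above KO 1 without overlap. Log2 fold changes against WT were 0.71 in KO 1 (SE 0.073, adjusted p = 3.8e-07) and 1.07 in KO 2 (adjusted p = 6.3e-10). CTSA fell by 0.24 in CRISPR Control (adjusted p = 0.0092). Without WT replicate 1, the highest of its line, the fall was 0.19 and did not pass (adjusted p = 0.058). On the opposite strand CTSA overlaps exons of NEURL2, PLTP and 1 other gene, and the strand setting of the counting is not given in the sources used here.

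CTSD (chr11:1752752-1764573, − strand, 9 exons) encodes cathepsin D, the main aspartic protease of the lysosome. The normalised counts of CTSD were 7671, 7235 and 7693 for WT and 4429, 5062 and 6556 for CRISPR Control, the line in which it varied most for its level (SD 1092 on a mean of 5349, n = 3). KO 1 had 11088, 9438 and 10863, and KO 2 had 11072, 12919.6 and 13580.3. The deficient libraries lay above the competent ones, while KO 1 and KO 2 overlapped. The log2 gain over WT was 0.47 in KO 1 (SE 0.11, adjusted p = 0.0027) and 0.73 in KO 2 (adjusted p = 2.0e-05), and CTSD fell by 0.51 in CRISPR Control (adjusted p = 0.00078). The log2 difference of 0.26 between KO 2 and KO 1 did not pass (95% CI 0.024 to 0.49, adjusted p = 0.076). It passed in 7 of 20 alternatives, a required minimum change aside: with edgeR, equal library totals, quantile normalisation (0.39, adjusted p = 0.0069) or a replicate block, and without CRISPR Control replicate 1 or 3 or KO 2 replicate 1 (0.34, adjusted p = 0.033). CTSD overlaps exons of 3 other genes, 2 of them on its own strand, so some of its reads are uncertain.

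CTSZ (chr20:58985686-59008238, − strand, 6 exons) encodes cathepsin Z, also called X, a cysteine carboxypeptidase. CRISPR Control gave normalised counts of 4398, 4960.2 and 4962, WT of 6719.9, 6102 and 5994, KO 2 of 6650.1, 7003 and 7842 and KO 1 of 8594, 8137 and 7960.1. KO 1 stood above every competent library, whereas the lowest KO 2 library lay below the highest WT library. The log2 gain over WT was 0.39 in KO 1 (SE 0.077, adjusted p = 0.00056), and CTSZ fell by 0.39 in CRISPR Control (adjusted p = 0.00029). In KO 2 the gain of 0.19 passed narrowly (adjusted p = 0.043). That call was lost when any of WT replicates 2 and 3, KO 2 replicates 2 and 3 or the 3 KO 1 libraries was left out, with adjusted p up to 0.22 without KO 2 replicate 3, and also with a replicate block (adjusted p = 0.057) or no minimum level (adjusted p = 0.090). CTSZ overlaps exons of NELFCD on the opposite strand, so its reads carry the same doubt as those of CTSA.

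CTSS (chr1:150730079-150765957, − strand, 8 exons) encodes cathepsin S, a cysteine protease that stays active at neutral pH and is known in antigen-presenting cells for trimming the invariant chain of MHC class II. It was the scarcest of the 10 genes and the one that changed most. WT gave normalised counts of 22.6, 30.0 and 21.0, CRISPR Control of 40.6, 65.2 and 38.5, KO 1 of 122, 118 and 113 and KO 2 of 340.5, 376 and 333. No 2 lines overlapped, and the lowest library held 20 reads. Against WT the log2 gain was 2.23 in KO 1 (SE 0.20, adjusted p = 5.3e-08) and 3.79 in KO 2 (adjusted p = 1.3e-11), which are 4.70-fold and 13.9-fold on the fitted scale. It rose in CRISPR Control as well, by 0.92 (adjusted p = 0.00075), and KO 2 exceeded KO 1 by 1.56 (adjusted p = 5.1e-06). Its absolute log2 change against WT was greater than that of 97.5% of all genes tested in KO 1 and 98.9% in KO 2.

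Because CTSS is abundant in macrophages, 10 macrophage and blood cell markers were read in the same libraries. Their summed normalised counts were 61.1 to 85.7 for WT, 72.6 to 83.0 for CRISPR Control, 118 to 145 for KO 1 and 249 to 303 for KO 2. AIF1, TYROBP and CD163 had at most 3 reads in every library. Of the 10, 2 (CD14 and ITGAM) were abundant enough to test, and both rose in each KO line against WT. CD14 and ITGAM thus moved with CTSS in the deficient lines. In CRISPR Control, where CTSS rose, neither was called against WT. Mean normalised counts of CD14 were 36.2 in WT and 36.5 in CRISPR Control, and those of ITGAM were 18.8 and 13.3. The scarcer markers did not share a direction. Mean normalised counts of PTPRC were 5.17 in WT, 0.36 in KO 1 and 2.49 in KO 2, and those of FCER1G were 1.92, 3.42 and 5.43. The part of these markers in the result was not tested. Of 13 genes of the MHC class II pathway, 2 (CD74 and CIITA) were abundant enough to test. Neither passed in KO 1 against WT, and 1 rose in KO 2 against WT.

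CTSC (chr11:88265069-88359684, − strand, 7 exons) encodes cathepsin C, also called dipeptidyl peptidase 1, which activates serine proteases of immune granules. In WT its normalised counts were 2119, 1936 and 2115 and in KO 1 they were 2132, 2261 and 2229, beside 2806, 3106 and 3086 for CRISPR Control and 3436, 3301 and 3401 for KO 2. WT and KO 1 were low, and CRISPR Control and KO 2 were high. The log2 gain over WT was 0.54 in CRISPR Control (adjusted p = 2.5e-06) and 0.72 in KO 2 (adjusted p = 6.1e-08). In KO 1 the difference of 0.10 did not pass (95% CI -0.042 to 0.25, adjusted p = 0.27). KO 2 exceeded KO 1 by 0.61 (adjusted p = 1.1e-06). KO 2 also exceeded CRISPR Control by 0.17 (adjusted p = 0.033), a call lost without any KO 2 library or without CRISPR Control replicate 1 (0.13, adjusted p = 0.12).

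CTSL (chr9:87724051-87731469, + strand, 8 exons) encodes cathepsin L, a cysteine endopeptidase. CRISPR Control had normalised counts of 2239, 2645 and 2241, beside 1443, 1199 and 1183 for WT, 1402, 1337 and 1306 for KO 1 and 1385, 1369 and 1572 for KO 2. CRISPR Control lay above the other lines without overlap, and those 3 lines overlapped. The gain in CRISPR Control over WT was 0.90 on the log2 scale (SE 0.092, adjusted p = 1.7e-07). Neither KO line passed against WT (0.086, 95% CI -0.11 to 0.28 in KO 1, and 0.18, 95% CI -0.013 to 0.37 in KO 2). Without WT replicate 1, the highest of that line, the difference in KO 2 was 0.27 and passed (adjusted p = 0.023). With equal library totals it was 0.28 and also passed (adjusted p = 0.015).

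LAMP2 (chrX:120426148-120469365, − strand, 9 exons) encodes a membrane protein with an isoform that is the receptor of chaperone-mediated autophagy. From lowest to highest line, the normalised counts were 6895, 7612 and 7466 (WT), 9365, 9427 and 8808 (CRISPR Control), 10267, 10678 and 10025 (KO 1) and 15386, 14711 and 13587 (KO 2). No 2 lines overlapped. LAMP2 rose over WT by 0.33 in CRISPR Control (log2, SE 0.068, adjusted p = 0.00052), by 0.50 in KO 1 (adjusted p = 1.4e-05) and by 0.99 in KO 2 (adjusted p = 6.6e-10). KO 1 exceeded CRISPR Control by only 0.17 (adjusted p = 0.042), which was lost without CRISPR Control replicate 3, WT replicate 3, KO 2 replicate 2 or any KO 1 library, with adjusted p up to 0.14 without KO 1 replicate 2.

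LAMP1 (chr13:113297239-113323672, + strand, 9 exons) encodes the other main membrane glycoprotein and moved little. WT had normalised counts of 7809, 7877 and 8039, KO 2 of 8600.1, 9080.1 and 8505, KO 1 of 8417, 9227 and 8854 and CRISPR Control of 9566, 10168 and 10985. CRISPR Control was highest and WT lowest, without overlap, and the KO lines lay between them and overlapped each other. The log2 gain over WT was 0.37 in CRISPR Control (adjusted p = 0.00015). The differences of 0.16 in KO 1 (95% CI 0.017 to 0.30, adjusted p = 0.076) and 0.14 in KO 2 (95% CI 0.00021 to 0.28, adjusted p = 0.083) did not pass. Each passed with quantile normalisation (adjusted p = 0.020 and 0.00061). The difference in KO 1 also passed without CRISPR Control replicate 1 (adjusted p = 0.044). That in KO 2 also passed with equal library totals (adjusted p = 0.0041) and with DESeq2 (adjusted p = 0.048).

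TFEB (chr6:41683978-41736259, − strand, 9 exons) encodes the transcription factor that is held in the cytoplasm when mTORC1 phosphorylates it, so its transcript level is not a measure of its activity. Normalised counts of TFEB were 264, 240.0 and 236 for WT, 241, 268 and 257 for KO 1, 272, 299 and 336 for CRISPR Control and 294, 324 and 372 for KO 2. WT overlapped KO 1 and CRISPR Control overlapped KO 2, and the first pair lay below the second. The log2 gain over WT was 0.41 in KO 2 (SE 0.12, adjusted p = 0.0064) and 0.29 in CRISPR Control (adjusted p = 0.047). In KO 1 the difference was 0.050 (95% CI -0.20 to 0.30). The call in CRISPR Control was lost without any of 8 single libraries, with adjusted p up to 0.18 without CRISPR Control replicate 3, and with a replicate block (adjusted p = 0.051). It was also lost with edgeR, with both other scalings and with no minimum level (adjusted p = 0.054 to 0.071), 13 of the same 20 alternatives in all. The call in KO 2 was lost with quantile normalisation (0.23, adjusted p = 0.11). TFEB overlaps exons of 1 other gene on the opposite strand, with the same doubt.

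Summed per kilobase of the Ensembl canonical transcript, so that genes of different length can be added, the 7 cathepsins reached 13525 ± 1061 in CRISPR Control, 16101 ± 784 in WT, 23410.2 ± 268 in KO 1 and 24492 ± 1306 in KO 2 (normalised counts per kb, SD, n = 3). The makeup of the sum differed between the deficient lines. CTSA made up 27.6% ± 1.1 of it in KO 2 and 22.6% ± 1.3 in KO 1. CTSB made up 23.6% ± 0.45 in KO 1, 16.7% ± 0.44 in KO 2 and 14.5% ± 0.48 in CRISPR Control. CTSC and CTSL together weighed most in CRISPR Control, with 11.9% ± 0.46 and 10.7% ± 1.2, against 6.83% ± 0.24 and 4.78% ± 0.33 in WT. CTSS was at most 0.364% ± 0.029 of the sum, in KO 2. By level per kilobase, CTSZ led the 10 genes in each WT library, LAMP1 in each CRISPR Control library, and CTSA in each KO 2 library. In KO 1, CTSZ led in replicate 1 and CTSB in the other two. TFEB was ninth and CTSS last in all 12 libraries.

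**Figure D3:**
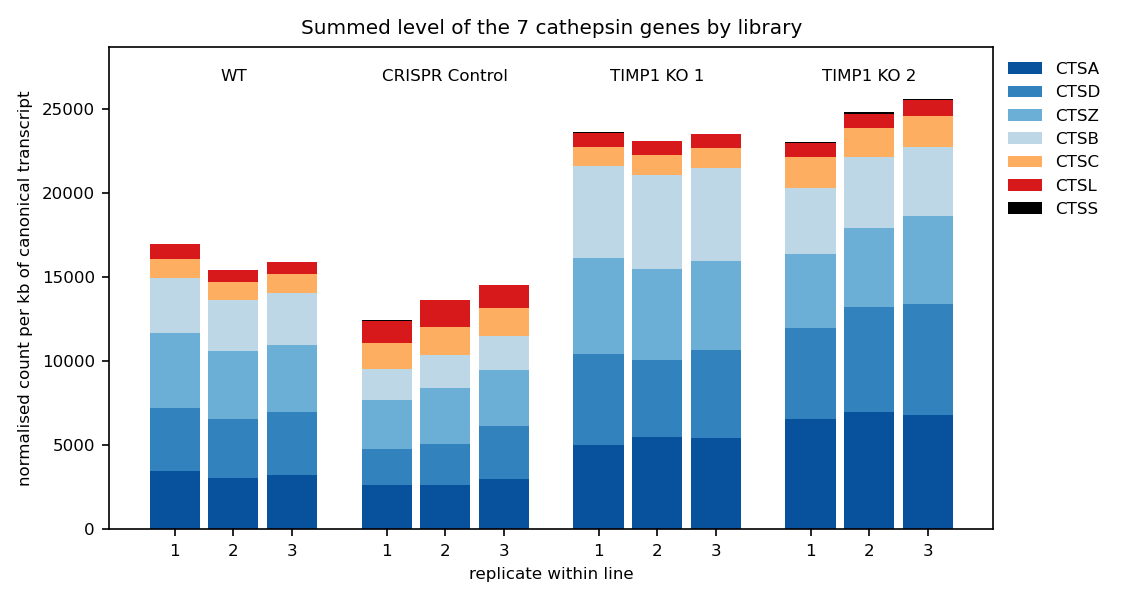
Summed level of the 7 cathepsin genes (normalised count per kb of canonical transcript) in each library, split by gene. The CRISPR Control bars average 13525 and the KO 2 bars 24492. CTSA fills the largest share in KO 2. The CTSL segment is widest in CRISPR Control and the CTSC segment in KO 2.

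Comparing the mean of the deficient lines with that of the competent lines, 8 of the 10 genes were called, 7 higher and 1 lower, where 65.9% of all genes tested were called, 32.9% higher and 33% lower. The log2 differences were 2.55 for CTSS, 1.01 for CTSA, 0.94 for CTSB, 0.86 for CTSD, 0.58 for LAMP2 and 0.49 for CTSZ. CTSC rose by 0.14 (adjusted p = 0.018), a call lost without WT replicate 2 (adjusted p = 0.055), and CTSL fell by 0.32 (adjusted p = 0.00031). LAMP1 (-0.035, 95% CI -0.14 to 0.065) and TFEB (0.087, 95% CI -0.089 to 0.26) did not pass, and the sign turned with quantile normalisation in both and with equal library totals in LAMP1. In 5 genes (CTSA, CTSB, CTSD, CTSS and LAMP2) the 6 deficient libraries all lay above the 6 competent ones, as they did in 12.3% of all genes tested. With the 4 line means as the units, 2 against 2, no member passed the adjusted threshold, nor did any of the 15987 genes. CTSA, CTSB, CTSD and CTSS were under 0.05 before adjustment. The share of all genes under 0.05 there was not counted, so no result about these members is drawn from it.

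Against CRISPR Control, 9 of the 10 genes were called in KO 1 (6 higher, 3 lower), where 63% of all genes were called, 31.7% higher and 31.3% lower. In KO 2 against CRISPR Control 9 were called (7 higher, 2 lower), where 67.7% of all genes were, 33.3% higher and 34.4% lower. CTSL fell by 0.81 in KO 1 and by 0.72 in KO 2, and LAMP1 fell by 0.21 in KO 1 (adjusted p = 0.011). That LAMP1 call was lost without CRISPR Control replicate 3 or KO 1 replicate 1 (adjusted p = 0.055 and 0.059). In KO 2 LAMP1 fell by 0.23 (adjusted p = 0.0059), a call lost with equal library totals (-0.11, adjusted p = 0.12) and quantile normalisation (-0.063, adjusted p = 0.39). CTSB stood 1.49 higher in KO 1 and CTSD 1.24 higher in KO 2. Between the deficient lines 7 genes were called, 5 higher and 2 lower in KO 2 than in KO 1, where 38.2% of all genes were called, 18.1% higher and 20.1% lower. A gene counted as changed by the study's intersection rule when both KO lines differed from WT and CRISPR Control did not, with the same direction in both lines required here. None of the 10 genes met it, where 10.2% of all genes tested did. All 10 were called by limma in CRISPR Control against WT, so none could meet the rule there, at an adjusted or an unadjusted p under 0.05. By edgeR and DESeq2 the number was 0 as well.

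Other genes of the lysosome were read from lists chosen by function. Their counts are read beside the shares of all genes tested, against WT. In KO 1, 18% of all genes rose and 17.5% fell. The shares were 27.1% and 27.9% in KO 2, and 27.2% and 26.3% in CRISPR Control. Several list counts below lie near these shares, and no list was tested as a set. Of 34 other acid hydrolases and activators tested, 22 rose and none fell in KO 1 against WT, 26 rose and 2 fell in KO 2 against WT, and 7 rose and 19 fell in CRISPR Control against WT. Their median log2 fold changes were 0.35, 0.54 and -0.26, beside the all-gene medians given above. GAA, the lysosomal alpha-glucosidase whose loss causes Pompe disease, had log2 fold changes of 0.48 in KO 1, 0.69 in KO 2 and -1.33 in CRISPR Control, each past the threshold. CTBS, di-N-acetylchitobiase of glycoprotein breakdown, had 0.90, 1.37 and -0.24, also past it.

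Of 8 other cathepsins listed, 5 were abundant enough to test. In KO 1, 2 rose and 1 fell against WT. In KO 2, 3 rose, and in CRISPR Control 2 rose and 2 fell. CTSF, another cysteine cathepsin, had log2 fold changes of 0.68 in KO 1, 0.37 in KO 2 and -0.39 in CRISPR Control, all called. CTSK, known from osteoclasts, fell by 0.46 in CRISPR Control (adjusted p = 0.049), with 0.42 and 0.081 in the KO lines, neither called. Of the cystatins, the inhibitors of cysteine cathepsins, 2 of 9 were abundant enough to test. CST3, which encodes secreted cystatin C, rose by 0.48 in KO 1 and by 0.71 in KO 2 and fell by 0.41 in CRISPR Control. CSTB, a cytosolic inhibitor, rose by 0.84 in CRISPR Control and passed in neither KO line (0.039 and 0.051).

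Of 18 other lysosome membrane genes tested, 4 rose and 1 fell in KO 1, 11 rose and 2 fell in KO 2, and 7 rose and 3 fell in CRISPR Control, each against WT. LAMP3, a LAMP family gene known in mature dendritic cells, rose by 1.31 in KO 1, by 2.65 in KO 2 and by 0.75 in CRISPR Control. LAPTM4B fell by 0.65 in KO 2 and rose by 0.43 in CRISPR Control, and its -0.16 in KO 1 was not called (adjusted p = 0.062). Of the 17 subunits and accessory proteins of the proton pump that acidifies the lysosome, 4 rose and 1 fell in KO 1, 9 rose and 1 fell in KO 2, and 8 rose and 2 fell in CRISPR Control. ATP6AP2, an accessory subunit, rose by 0.52 and by 0.45 in the KO lines and fell by 0.48 in CRISPR Control. ATP6V0A1, of the membrane sector, rose by 0.25 and by 0.50 and fell by 0.30.

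The next list held 9 genes for the sorting of new cathepsins to the lysosome, with or without the mannose 6-phosphate tag. Of these, 3 rose and 1 fell in KO 1, 2 rose and 4 fell in KO 2, and 4 fell in CRISPR Control. GNPTG, a subunit of the enzyme that adds the tag, rose by 0.45 in KO 1 and by 0.60 in KO 2 and fell by 0.71 in CRISPR Control. SORT1, the sorting receptor sortilin, rose by 0.35 in KO 1 and fell by 0.55 in KO 2 and by 1.91 in CRISPR Control. Of 20 MiT/TFE and nutrient-sensing genes tested, 1 rose and 2 fell in KO 1, 7 rose and 4 fell in KO 2, and 8 rose and 3 fell in CRISPR Control. MITF, a relative of TFEB, had mean normalised counts of 16.9 ± 3.2 in KO 1, 128 ± 18 in KO 2, 228 ± 49 in WT and 1421 ± 94 in CRISPR Control (SD, n = 3), without overlap between lines. RRAGD, a Rag GTPase that recruits mTORC1 to lysosomes, rose by 1.98 in CRISPR Control and by 1.25 in KO 2 and fell by 1.68 in KO 1. Of 20 autophagy genes, 9 rose and 1 fell in KO 1, 9 rose and 1 fell in KO 2, and 11 rose and 4 fell in CRISPR Control. ULK1, the kinase that starts autophagy, rose by 0.88 in CRISPR Control and fell by 0.71 in KO 2. WIPI1, which binds the phospholipid of forming autophagosomes, rose by 0.67 in KO 1 and by 0.73 in KO 2.

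**Figure D4:**
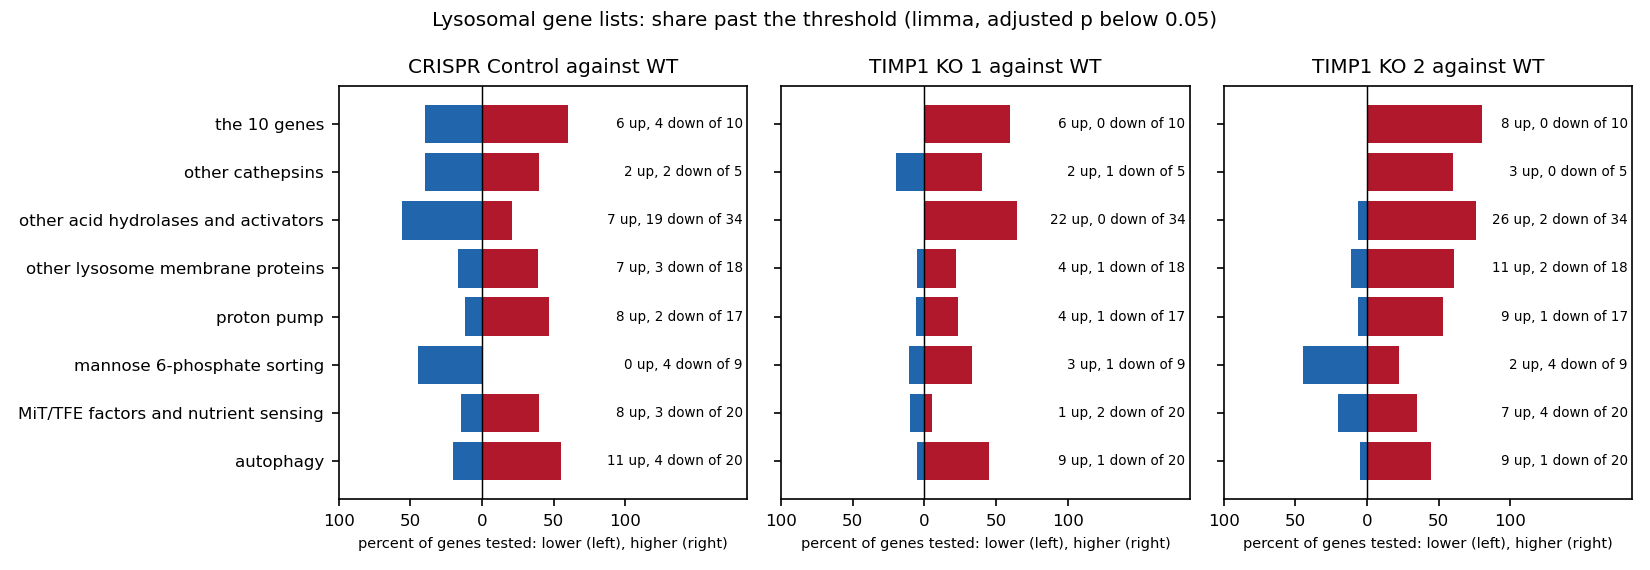
Percent of the genes tested in each lysosomal list that rose (right) or fell (left) against WT, in CRISPR Control, KO 1 and KO 2, with the counts printed. The acid hydrolases show 19 of 34 lower in CRISPR Control, and 22 and 26 of 34 higher in KO 1 and KO 2. Of all genes tested, 26.3% were lower in CRISPR Control, and 18% and 27.1% were higher in KO 1 and KO 2.

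Among the other members and the tested genes of these lists, 136 candidates for each gene, the closest pattern to each member was sought as the least root mean square difference of centred log2(normalised count + 1) over the 12 libraries. CTSL was closest to CTSV (0.050), a related cathepsin gene. Whether any reads were split between them was not tested. CTSD was closest to CST3 (0.069), LAMP1 to RAB7A (0.063), CTSZ to BECN1 (0.096) and TFEB to ATP6V1E1 (0.099). LAMP2 was closest to MANBA (0.11), CTSC to ATP6V1D (0.12) and CTSB to FUCA1 (0.16). For CTSS the closest gene was LAMP3 (0.54). These distances are read against each gene's own root mean square spread about its mean. It was 1.44 for CTSS, 0.55 for CTSB, 0.50 for CTSD, 0.37 for CTSL and 0.36 for LAMP2. It was 0.30 for CTSC and for CTSZ, 0.20 for TFEB and 0.14 for LAMP1. Among these genes the distance was smallest beside the spread for CTSL and CTSD, and it was larger beside the spread for the others. No limit for a close likeness was set.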

How the data were processed

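RNA of 12 MIA PaCa-2 libraries, 3 per line, was sequenced. The authors trimmed read pairs with Cutadapt, mapped them with STAR to GRCh38, counted reads per gene with featureCounts and scaled the counts with DESeq2 size factors. The deposited values are this signal, and a shift common to most genes is removed by such scaling. Aggregate columns of the authors' line means (4) were not used, and 1 row without an identifier was left out. Values were whole multiples of a step in each library, so whole reads were recovered (100% whole, within 0.01 reads). Floors of 3 reads cover counting error only. The confidence intervals are limma's and rest on the spread between the libraries of a line.

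limma 3.58.1 in R 4.3.3 (lmFit, eBayes with a trend) was run on log2(normalised count + 1), which understates changes of low genes, over the 15987 genes with a mean of at least 10 (99.9% of the reads), all 12 libraries sharing a spread per gene. p-values were adjusted by Benjamini-Hochberg. edgeR 4.0.16 and DESeq2 1.42.0 on the recovered reads were alternatives, with another pseudocount (10), other minimums (50 and none), other scalings, a minimum absolute log2 change of 1, a replicate block, line means as units and each library left out. The fits were tested on simulated data. Coordinates are of GRCh38 from GENCODE release 44, in which 97.6% of the identifiers matched with their version. The sample titles give groups and biological replicates; where replicates of a line were not separate cultures, p-values measure only the spread between libraries. Each member was named, and from each list the 2 genes past the threshold with the largest absolute change between deficient and competent lines at a mean of at least 100. The members and lists were chosen with earlier results of these data known. The gene closest in pattern to CTSA is not reported here.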

Additional observations from a re-analysis of the deposited data

Results flagged for a closer look

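The effect against WT differed between the KO lines in 7 genes, by limma's test of KO 2 against KO 1 (adjusted over all genes, 3 libraries a line). By the same test 38.2% of all genes tested were called. The log2 difference of KO 2 from KO 1 was 1.56 for CTSS, 0.61 for CTSC, 0.49 for LAMP2, 0.36 for TFEB (adjusted p = 0.021) and 0.35 for CTSA. It was -0.43 for CTSB and -0.20 for CTSZ (adjusted p = 0.045). In CTSS, CTSC, LAMP2, CTSA and CTSB the 3 libraries of KO 2 lay on 1 side of those of KO 1, as they did in TFEB and CTSZ. The share of all genes separated in this way was not counted, so this describes the called genes only. The CTSZ difference was lost in 13 of 20 alternatives, a required minimum change aside. These were edgeR (adjusted p = 0.061), DESeq2 (adjusted p = 0.055), both other scalings, a replicate block, no minimum level and 7 single libraries left out. Without KO 2 replicate 1 its adjusted p was 0.18. The TFEB difference was lost without KO 1 replicate 1 or KO 2 replicate 3 (adjusted p = 0.079 and 0.11) and with quantile normalisation (0.27, adjusted p = 0.090). The same test gave no call for CTSD, CTSL and LAMP1.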

How the results depend on the processing

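The counts of members called stayed within 1.5 times their value in every alternative but those named here. With an absolute log2 change of at least 1 also required, 1 gene remained in KO 1 and 2 in KO 2 against WT, 0 in CRISPR Control against WT, 2 in KO 1 and 4 in KO 2 against CRISPR Control, 1 in KO 2 against KO 1 and 2 between deficient and competent lines, while 1 (CTSS, whose change in CRISPR Control was smaller) met the intersection rule. The shares of all genes that met this minimum change were not counted. With line means as units, 0 were called. Leaving out each library gave 0 to 1 genes in the intersection (CTSA, without WT replicate 1), and elsewhere counts of 6 to 7 in KO 1 and 7 to 9 in KO 2 against WT. LAMP1 changed sign between KO 2 and KO 1 with equal library totals (0.086), quantile normalisation (0.10) and without KO 1 replicate 2 (0.015) or KO 2 replicate 3 (0.0017), and between deficient and competent lines with equal totals (0.019) and quantile normalisation (0.067). TFEB changed sign with quantile normalisation in KO 1 against WT (-0.037), KO 2 against CRISPR Control (-0.051) and deficient against competent lines (-0.044). None of these was called.

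Replicate numbers did not pair the libraries: deviations of same-numbered libraries correlated from -0.13 to 0.16, over 0.1 in 2 of 18 pairs. With the replicate block the counts of members called in the order above were 6, 7, 9, 9, 9, 7 and 8, and 0 in the intersection. It ended the calls of CTSZ in KO 2 against WT and against KO 1 (adjusted p = 0.057 and 0.059) and of TFEB in CRISPR Control against WT (adjusted p = 0.051), and CTSD passed between KO 2 and KO 1 (adjusted p = 0.045). Counting error weighs most on CTSS and TFEB, whose lowest libraries held 20 and 223 reads, against 1188 or more for the other members.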
